A study of Mus musculus with 24 samples.

Results

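The genes of the mitochondrial genome were followed through ischemia and reperfusion of the mouse heart. They were taken as all genes whose mouse symbol starts with mt-, which gave 37 of the 46078 genes counted, made up of 13 protein genes, 22 transfer RNA (tRNA) genes and 2 ribosomal RNA (rRNA) genes. RNA sequencing had been done on hearts of C57BL/6 mice in 24 libraries, 3 in each of 8 groups. In 1 group hearts had 45 min of ischemia alone. In 6 groups the same ischemia was followed by reperfusion for 0.5, 1, 1.5, 3, 6 or 12 h, and the last group had sham surgery. The labels give neither the age nor the sex of the mice, nor the region of the heart, nor whether replicate libraries are separate mice. Every p-value below therefore measures the spread between libraries, which may be technical. The p-values of the ratio of all to distinct reads are an exception, since they rest on a trend over genes. For each library the authors counted the reads of every gene once with all reads and once after removal of duplicate reads, those placed at the same position as another read, and both readouts are set side by side here.

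The mitochondrial genome is a small circle of DNA present in many copies per cell, and heart muscle is among the tissues richest in it. Its protein genes encode core subunits of the respiratory chain and of ATP synthase, while the remaining subunits are encoded in the nucleus and imported. Both strands are transcribed into long precursors that are cut at the tRNAs lying between the genes, so that the levels of the mature RNAs depend on transcription, on cutting and on decay. On one strand lie most of the genes, and on the other lie mt-Nd6 and several tRNA genes.

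The 24 libraries held between 13407465 and 17181458 uniquely mapped reads on genes with duplicates kept, and between 6111383 and 10438941 with duplicates removed. All 10 cardiomyocyte markers checked had reads in every group. The third ischemia library stood apart from the other two of its group, with 19.0% of its reads on mitochondrial genes against 30.2% and 29.7%. In bulk samples such as these, fewer cells of a type and less RNA per cell cannot be told apart. Whether the counting used strand is not given in the sources used here, so reads from genes that overlap on opposite strands, mt-Nd6 and its surroundings and the tRNA genes among them, could not be separated.

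Part of the mitochondrial genome has a near-identical copy in the nucleus, and genes in that stretch had few reads that mapped to 1 place. The annotation places 7 genes on the minus strand of chromosome 1, between chr1:24611535-24616197 of GRCm38 (GENCODE vM21), that match the transcripts of mt-Co1, mt-Co2, mt-Atp6, mt-Co3, mt-Nd3, mt-Nd4l and mt-Nd4. Over the aligned bases the copies of mt-Co2, mt-Atp6, mt-Co3, mt-Nd4l and mt-Nd4 were identical, the copy of mt-Nd3 differed at 1 base and the copy of mt-Co1 at 6 bases over its last 492 bases. The first 60 bases of mt-Co2 and mt-Nd3 are printed beside those of their copies, because a read from the mt-Co2 stretch, or from the mt-Nd3 stretch beyond the base in capitals, has the same letters in both places. The capital marks the only base at which the copy of mt-Nd3 differs, T3C, counted from 1 at the first base of the gene.
mt-Co2: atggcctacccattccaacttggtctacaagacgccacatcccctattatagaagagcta
Gm28661: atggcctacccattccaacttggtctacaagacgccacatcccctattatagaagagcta
mt-Nd3: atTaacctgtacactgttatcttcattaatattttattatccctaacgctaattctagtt
Gm28438: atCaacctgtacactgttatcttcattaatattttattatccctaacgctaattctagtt
The mitochondrial sequences lie at chrM:7013-7072 and chrM:9459-9518 on the plus strand, and the copies at chr1:24615506-24615565 and chr1:24613060-24613119 on the minus strand.

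The share of reads that mapped to 1 place followed this map. It was 6.05% for mt-Co2, 6.16% for mt-Co3, 6.19% for mt-Atp6, 5.55% for mt-Nd3, 8.83% for mt-Nd4l and 22.2% for mt-Atp8, over the 24 libraries together. It was 64.3% for mt-Nd4 and 84.3% for mt-Co1, which are only partly copied. The remaining 5 protein genes, mt-Nd1, mt-Nd2, mt-Nd5, mt-Nd6 and mt-Cytb, and both rRNA genes lay outside the copied stretch. The deposited tables also hold counts that include multiply mapped reads, and there the copy of mt-Co2 carried 96.8% as many reads as mt-Co2 itself. Fold changes of mt-Co2, mt-Co3, mt-Atp6, mt-Atp8, mt-Nd3 and mt-Nd4l from unique reads therefore rest on a small part of their reads. They are given below beside those that include multiply mapped reads, at 1 time for mt-Co2 and mt-Nd4l and as ranges for the others.

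With multiply mapped reads included and per kilobase of gene length, mt-Co1 had the highest level of the 37 genes. mt-Co1, a catalytic subunit of cytochrome c oxidase, averaged 61679 RPKM (reads per kilobase per 1000000 reads) over the 24 libraries, with a range of 48122 to 77285. On the same scale mt-Cytb, the mitochondrially encoded subunit of complex III, averaged 26851, and mt-Nd1, a complex I subunit, averaged 22475. The other protein genes lay between 4697 for mt-Nd3 and 21582 for mt-Co2, apart from mt-Atp8. mt-Atp8, a small subunit of ATP synthase whose gene overlaps mt-Atp6, averaged 69.8 RPKM, against 18739 for mt-Atp6. How the counting treated reads that fall in both genes is not given in the sources used here, so the level of mt-Atp8 is uncertain. The rRNAs of the mitochondrial ribosome, mt-Rnr2 (large subunit) and mt-Rnr1 (small subunit), averaged 3131 and 1196, below every protein gene except mt-Atp8. The labels name the Illumina TruSeq RNA kit but do not say how rRNA was treated, so these rRNA levels cannot be read as levels in the cell.

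**Figure D1:**
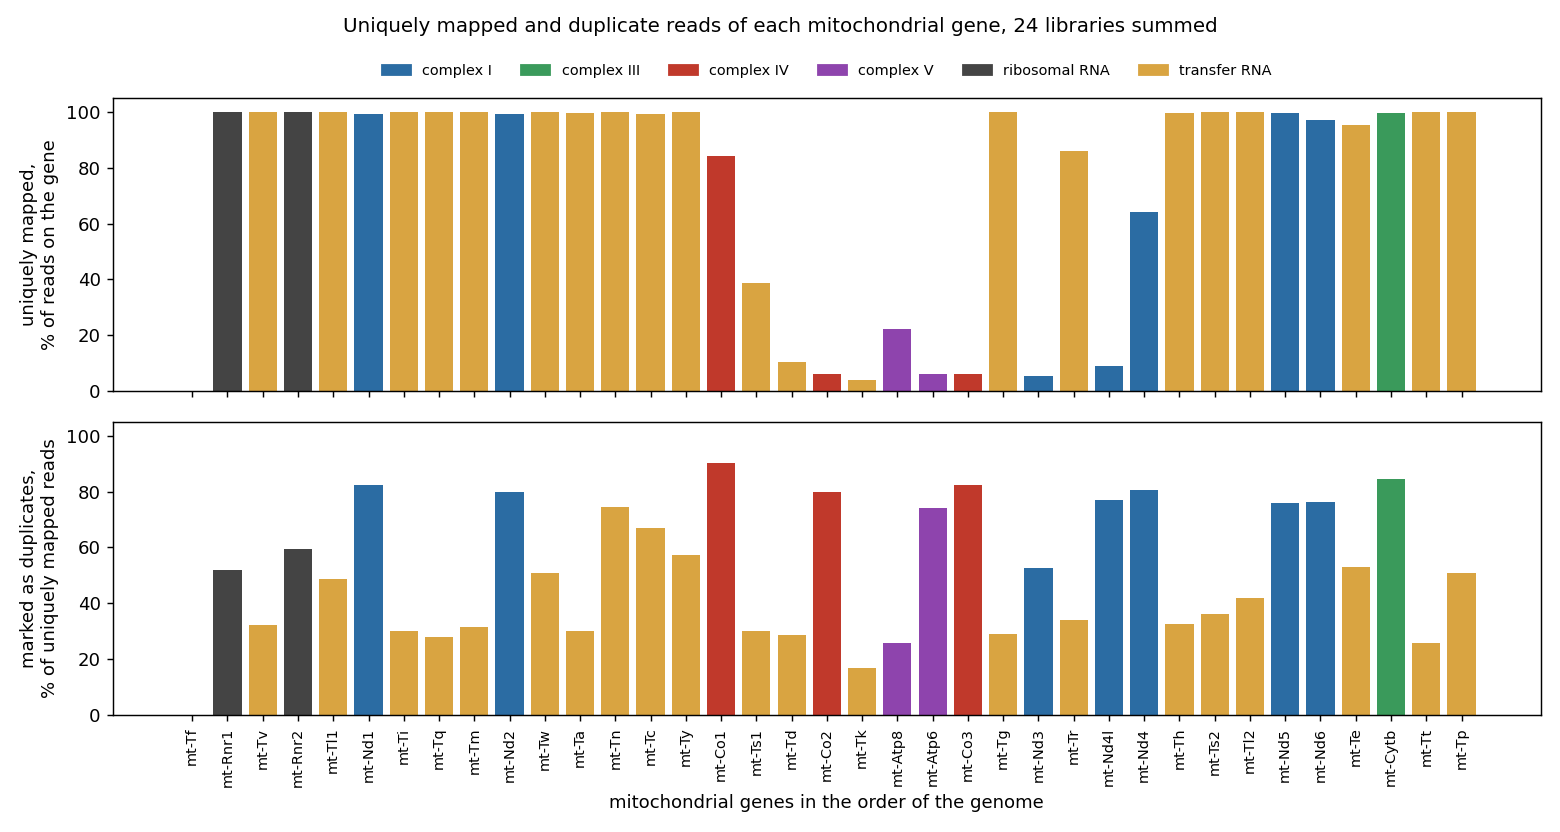
Uniquely mapped reads as a percent of all reads on the gene (top) and duplicates as a percent of uniquely mapped reads (bottom) for the 37 mitochondrial genes in genome order, 24 libraries summed, coloured by class; mt-Tf has no reads. The unique share is lower for most genes between mt-Ts1 and mt-Nd4, down to 4.14% for mt-Tk, but is 99.9% for mt-Tg and 86.01% for mt-Tr, and mt-Co1 has the highest share of duplicates at 90.1%.

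Mitochondrial genes took a smaller share of the counted reads in all 6 reperfusion groups than in sham hearts when duplicates were kept. The share was 30.2%, 29.7% and 19.0% in the ischemia libraries, 22.3%, 20.02% and 21.1% at 0.5 h, 28.7%, 21.1% and 24.5% at 1 h, 26.8%, 27.3% and 24.9% at 1.5 h, 21.5%, 25.5% and 20.5% at 3 h, 19.7%, 19.04% and 21.2% at 6 h and 20.6%, 20.9% and 24.04% at 12 h, against 28.9%, 31.1% and 33.2% in sham hearts. No library of a reperfusion group reached the lowest sham library, while the ischemia group overlapped sham. The lowest mean was 20.0% ± 1.14 at 6 h, against 31.04% ± 2.14 in sham hearts (SD, n = 3 each). With 3 libraries against 3 an exact permutation test cannot go below 0.10, so none of these differences could pass it.

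With duplicates removed the shares were lower in every library and the groups lay closer together. They were 7.89%, 8.32% and 6.49% in the ischemia libraries, 7.82%, 7.09% and 6.96% at 0.5 h, 9.78%, 6.94% and 7.61% at 1 h, 7.75%, 7.92% and 7.43% at 1.5 h, 6.89%, 7.93% and 7.14% at 3 h, 6.71%, 6.61% and 7.24% at 6 h and 6.83%, 6.26% and 7.22% at 12 h, against 7.74%, 8.59% and 9.52% in sham hearts. Only the 6 h and 12 h groups then stayed clear of sham, with means of 6.85% ± 0.339 and 6.77% ± 0.482, against 8.61% ± 0.892 (SD, n = 3 each). The number of distinct mitochondrial reads ran from 550140 to 704958 between libraries or 1.28-fold, while the number with duplicates kept ran from 3090402 to 4725363 or 1.53-fold. Distinct nuclear reads ran from 5529668 to 9785003 or 1.77-fold, and nuclear reads with duplicates kept from 8958788 to 13728348 or 1.53-fold. The shares therefore moved with the number of nuclear reads as well as with that of mitochondrial reads.

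**Figure D2:**
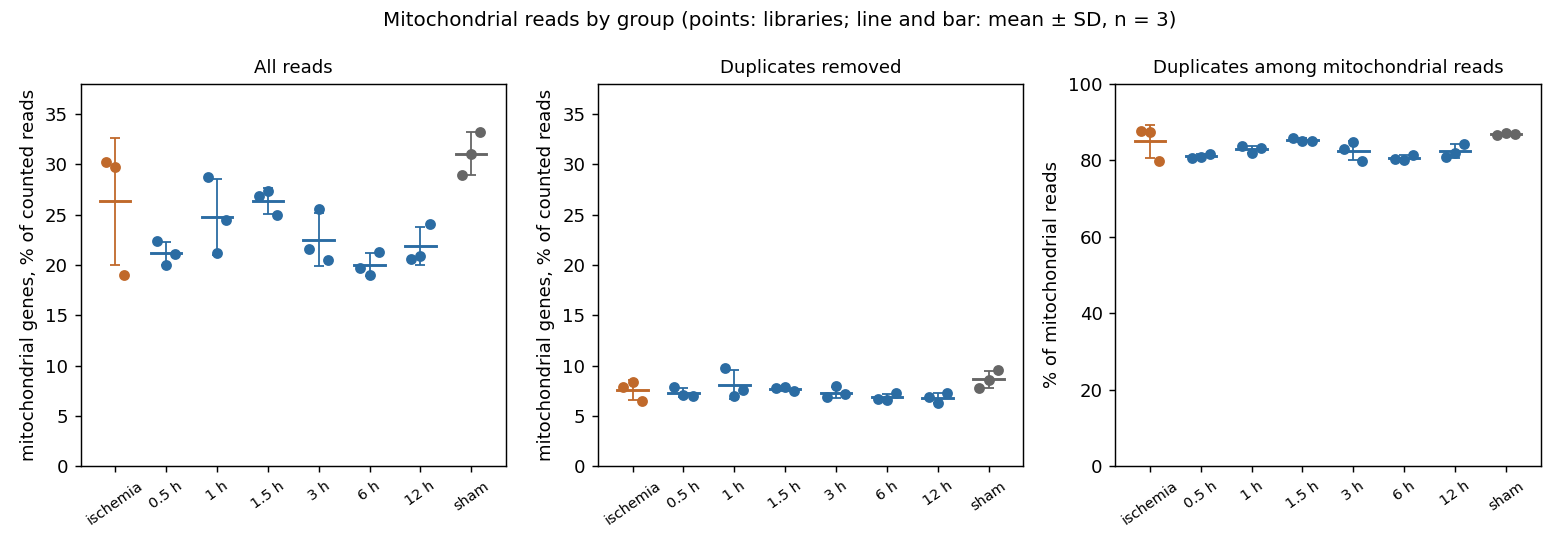
Mitochondrial genes as a percent of counted reads with duplicates kept (left) and removed (middle), and duplicates as a percent of mitochondrial reads (right), in each of the 24 libraries by group; points are libraries, and lines with bars are means ± SD (n = 3). With duplicates kept no reperfusion library reaches the lowest sham library at 28.9%, and with duplicates removed only the 6 h and 12 h groups stay clear of sham.

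Most mitochondrial reads were duplicates. The share of mitochondrial reads marked as duplicates averaged 84.9% ± 4.36 in ischemia, 81.1% ± 0.533 at 0.5 h, 82.9% ± 0.918 at 1 h, 85.2% ± 0.4901 at 1.5 h, 82.4% ± 2.496 at 3 h, 80.5% ± 0.769 at 6 h and 82.3% ± 1.83 at 12 h, against 86.9% ± 0.235 in sham hearts (SD, n = 3 each). Every reperfusion group lay below sham without overlap on this measure, and ischemia overlapped it. The share among nuclear reads ran from 28.0% to 40.7% over the 24 libraries, and no group was clear of sham. The nuclear means were 36.8% ± 4.36 in ischemia, 35.4% ± 1.725 at 0.5 h, 35.9% ± 3.02 at 1 h and 36.6% ± 1.997 at 1.5 h. They were 35.9% ± 3.565 at 3 h, 33.9% ± 1.66 at 6 h and 32.0% ± 4.09 at 12 h, against 37.2% ± 1.74 in sham hearts (SD, n = 3 each). Every nuclear mean thus lay below sham too. At 12 h the difference was -5.22 percentage points, against -4.61 among mitochondrial reads. By gene, over all 24 libraries, the share of duplicates was 90.1% for mt-Co1, 84.7% for mt-Cytb, 82.4% for mt-Nd1 and 76.1% for mt-Nd6. It was 59.3% for mt-Rnr2 and 51.8% for mt-Rnr1, and 28.1% for the low tRNA gene mt-Tq.

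In all, 12 members, 11 of the 13 protein genes and mt-Tn, exceeded 70% duplicates, against 6 of the 15097 nuclear genes tested. Of those 6 nuclear genes, 5 were copies of mitochondrial genes on chromosome 1 and the other was Mb, the oxygen-binding myoglobin of muscle. The nuclear genes with the highest levels per length had fewer duplicates than mt-Co1: 67.6% for Actc1, cardiac alpha-actin, 71.5% for Mb, 58.4% for Myh6, a cardiac myosin heavy chain, 48.9% for Gm23935 and 65.5% for Fabp3, the fatty acid binding protein of heart. Among nuclear genes the median share of duplicates was 26.2% at mean levels of 0.1 to 1 RPKM and 59.3% in the 14 genes above 1000 RPKM, so the share increased with level there too. Distinct reads per base of gene, summed over the 24 libraries and then averaged per library, came to 96.2 for mt-Co1 and 31.6 for Actc1.

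**Figure D3:**
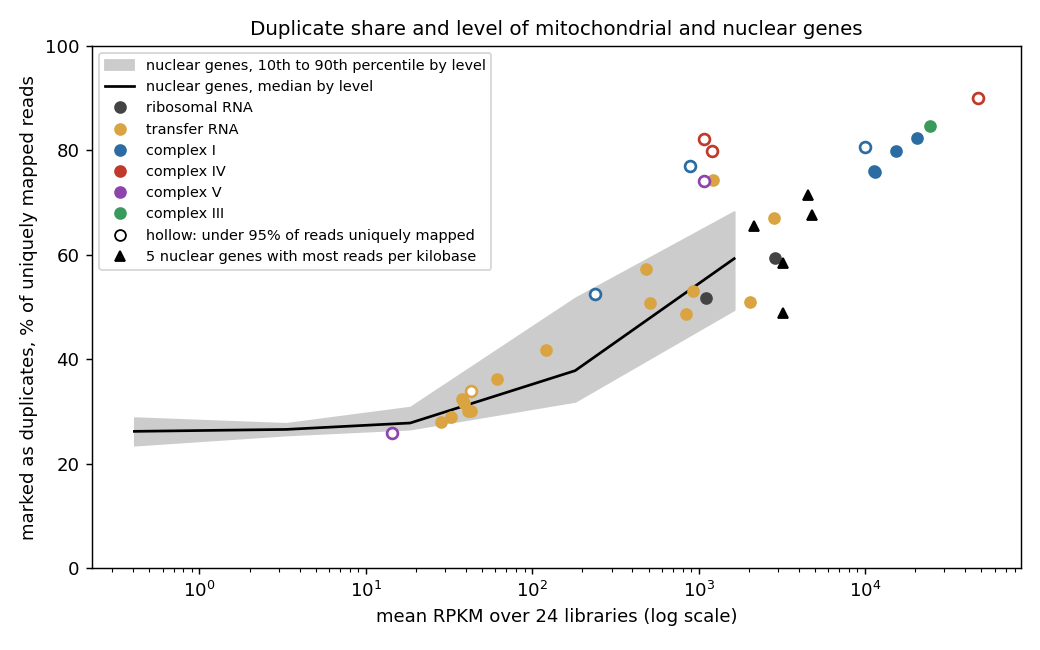
Duplicates as a percent of uniquely mapped reads against mean level (RPKM, log axis) of the 31 tested mitochondrial genes, coloured by class and hollow where under 95% of reads map to 1 place; the line and band give the median and the 10th to 90th percentiles of nuclear genes by level, and triangles the 5 nuclear genes with the highest level. Most protein genes lie above 70%, while the low tRNA genes lie near the nuclear median.

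Differences from sham were tested for each gene across the whole table with edgeR's quasi-likelihood test, and calls were made where the adjusted p stayed under 0.05 (Benjamini-Hochberg over all 15128 genes tested with duplicates kept). Of the 37 members 31 passed the filter on low counts. The 6 that did not were tRNA genes with few reads in all 24 libraries together: mt-Tf with 0, mt-Td with 7, mt-Tk with 12, mt-Ts1 with 43, mt-Tt with 66 and mt-Tv with 68. A count of 0 for mt-Tf allows up to 3 reads in a library, for counting error only.

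After ischemia alone no member was called by edgeR, where 9 had an unadjusted p under 0.05, DESeq2 called 3 and limma-voom called 0, and without ischemia replicate 1 edgeR called 1. The background for that comparison was also close to nothing, with 0.0925% of all genes called in either direction. With reperfusion the calls among members were nearly all falls. At 0.5 h 18 of the 31 members were lower than in sham hearts and none was higher, while 4.48% of all genes were called lower and 7.43% higher. At 1 h 7 members were lower against a background of 3.41%, and at 1.5 h 6 were lower against 2.99%. At 3 h 13 were lower and 2 higher, where 16.9% of all genes were lower and 18.4% higher. At 6 h 12 were lower and 4 higher, where 22.9% and 24.6% of all genes were, and at 12 h 14 were lower and 1 higher, where 14.9% and 16.9% were. The median log2 fold change of the 31 members was -0.73 at 0.5 h, -0.48 at 1 h, -0.57 at 1.5 h, -0.44 at 3 h, -0.31 at 6 h and -0.66 at 12 h, with the median of all genes within 0.013 of 0 in each. These counts depended on single libraries: at 0.5 h 11 members were called without sham replicate 2 or sham replicate 3 and 9 without reperfused replicate 3, at 1 h 3 without sham replicate 2, and at 12 h 9 without reperfused replicate 1. At 3 h 9 were called without sham replicate 2, 6 without sham replicate 3, 9 without reperfused replicate 1, 6 of them lower and 3 higher, and 7 without reperfused replicate 3.

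With duplicates removed fewer members were called at 4 of the 6 reperfusion times. At 0.5 h 11 were lower, where 5.38% of all genes were, at 1 h 7 (4.15%) and at 1.5 h 6 (3.56%). At 3 h 6 were lower and 1 higher (18.3% and 20.1%), at 6 h 7 were lower and 4 higher (24.6% and 26.4%), and at 12 h 10 were lower (16.5%) and none higher by edgeR. After ischemia none was called by edgeR, 10 having an unadjusted p under 0.05, where the background was 0.0763%. The genes called in both readouts numbered 11 at 0.5 h, 6 at 1 h, 6 at 1.5 h, 6 at 3 h, 11 at 6 h and 10 at 12 h. The median member was -0.31 at 0.5 h, -0.15 at 1 h, -0.37 at 1.5 h, -0.13 at 3 h, -0.10 at 6 h and -0.37 at 12 h on the log2 scale. These counts too moved with single libraries. At 0.5 h they were 5 without sham replicate 2, 4 without sham replicate 3, 6 without reperfused replicate 1 or 2 and 4 without replicate 3. At 1 h they were 3 without sham replicate 2 and 4 without sham replicate 3 or reperfused replicate 1 or 2, and at 1.5 h 3 without reperfused replicate 3. At 3 h they were 2 without sham replicate 2 or 3 and 1 without reperfused replicate 3, and at 6 h 7 without sham replicate 2 or reperfused replicate 2, with 4 lower and 3 higher each, and 6 without sham replicate 3, with 2 lower and 4 higher. At 12 h they were 6 without sham replicate 2 or reperfused replicate 1, 2 without sham replicate 3 and 0 by edgeR without reperfused replicate 2.

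**Figure D4:**
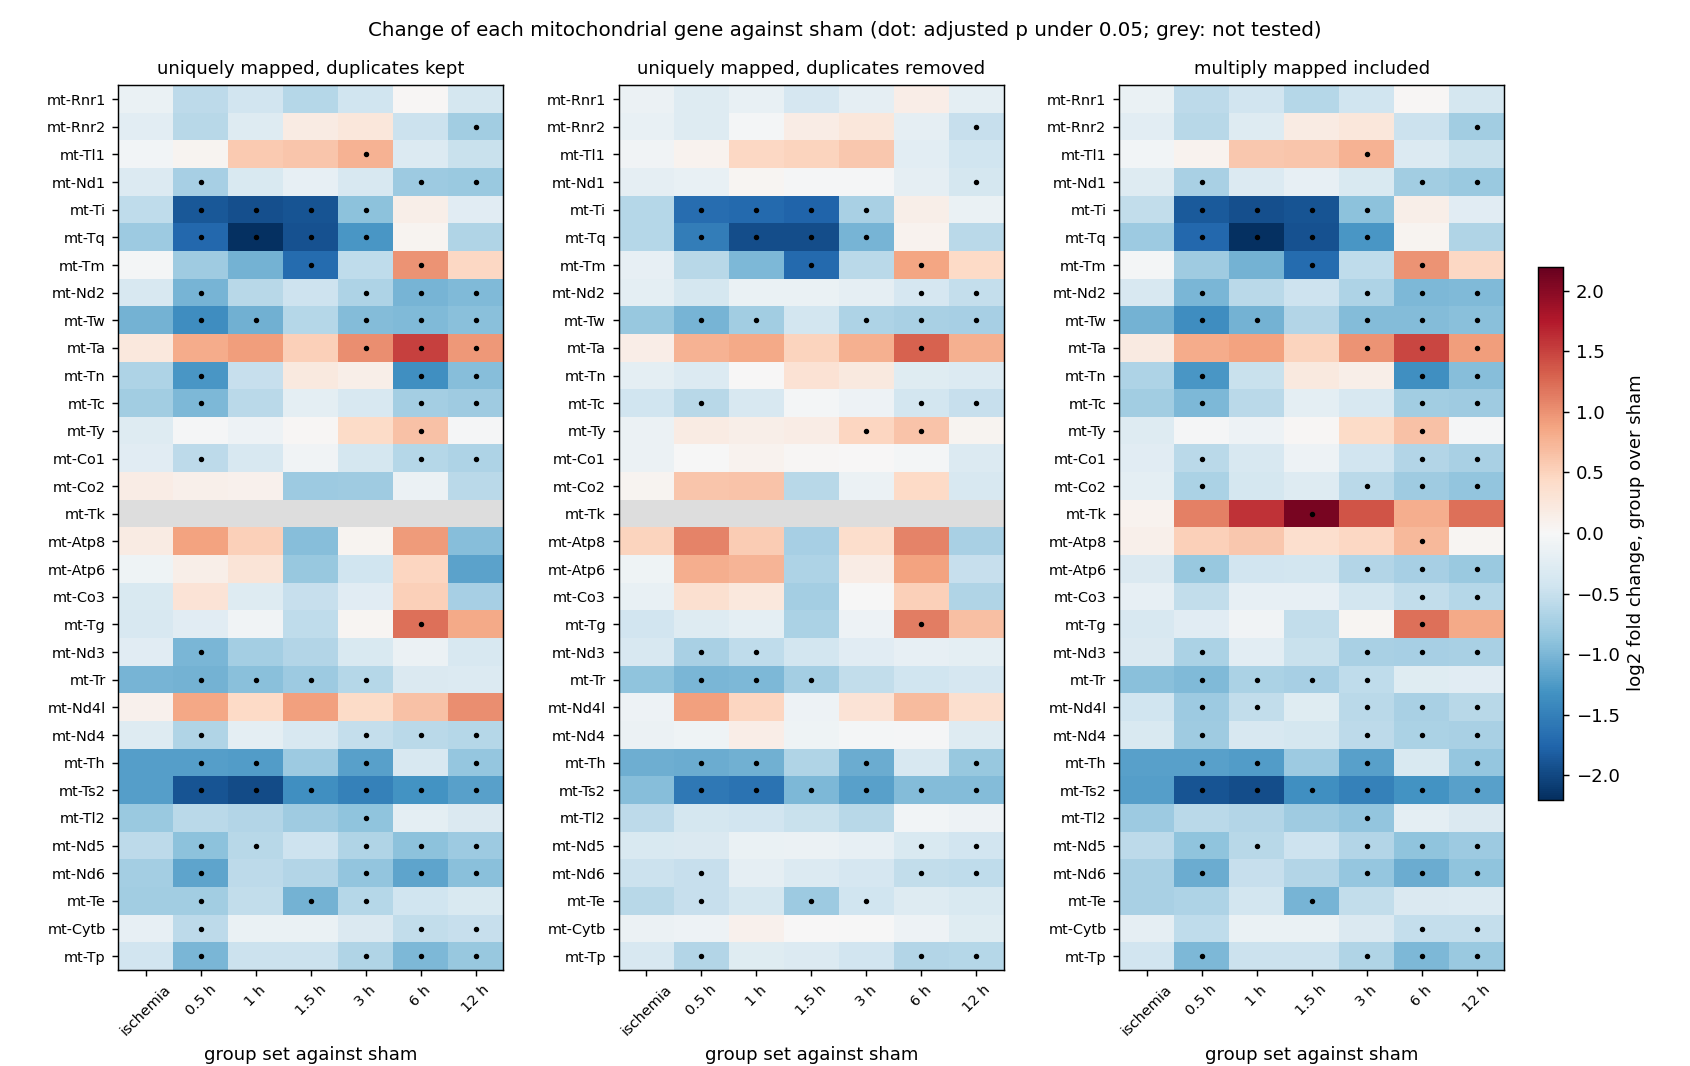
Log2 fold change against sham hearts of the tested mitochondrial genes in genome order, after ischemia and at 6 reperfusion times, with duplicates kept, with duplicates removed and with multiply mapped reads included; dots mark an adjusted p under 0.05 (edgeR) and grey a gene not tested. The protein genes carry fewer dots with duplicates removed, and mt-Ts2 is marked at all 6 reperfusion times in each readout.

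Levels in single libraries are given as CPM, unique reads per 1000000 after scaling of the library sizes by the TMM method. Among the protein genes mt-Nd6 had the lowest log2 fold change at 0.5, 3 and 6 h. mt-Nd6, the complex I subunit encoded on the opposite strand from the other protein genes, had 10623, 8242 and 3930 CPM in ischemic hearts, 5979, 5015 and 6139 at 0.5 h, 11518, 5929 and 8044 at 1 h, 9095, 8704 and 6686 at 1.5 h, 6402, 8569 and 5938 at 3 h, 5613, 5239 and 6236 at 6 h, 5668, 7069 and 7420 at 12 h, against 10385, 12817 and 14890 in sham hearts, with duplicates kept. All reperfused libraries at 0.5, 1.5, 3, 6 and 12 h lay below the sham libraries. Its log2 fold change was -1.15 ± 0.25, adjusted p = 0.00639 at 0.5 h, -1.16 ± 0.25, adjusted p = 0.000666 at 6 h and -0.92 ± 0.25, adjusted p = 0.0073 at 12 h (edgeR, ± SE). It was also called at 3 h (-0.87 ± 0.25), where the call was lost without sham replicate 3 or reperfused replicate 3. With duplicates removed the fold changes were smaller, -0.51 ± 0.17 at 0.5 h, -0.54 ± 0.17 at 6 h and -0.55 ± 0.17 at 12 h, and these 3 passed the test while the one at 3 h (-0.38 ± 0.17, adjusted p = 0.0821) did not. The call at 0.5 h in that readout was lost without any 1 of the 6 libraries, that at 6 h without sham replicate 3, and that at 12 h without sham replicate 3 or reperfused replicate 2.

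mt-Nd1, a membrane subunit of complex I, had 31070, 34970 and 17762 CPM in ischemic hearts, 23187, 17756 and 20928 at 0.5 h, 36718, 20805 and 24245 at 1 h, 31003, 30971 and 28867 at 1.5 h, 23507, 34712 and 22231 at 3 h, 19771, 17954 and 21032 at 6 h, 17506, 17479 and 23162 at 12 h, against 31925, 33989 and 36794 in sham hearts. At 0.5, 1.5, 6 and 12 h every reperfused library lay below every sham library. The log2 fold change was -0.81 ± 0.21, adjusted p = 0.00327 at 6 h and -0.82 ± 0.21, adjusted p = 0.00467 at 12 h. At 0.5 h it was -0.73 ± 0.21, adjusted p = 0.0289, a call lost without any 1 of the 6 libraries. With duplicates removed only the fall at 12 h passed (-0.39 ± 0.14, adjusted p = 0.033), and it was lost without sham replicate 2 or 3 or reperfused replicate 1 or 2. mt-Nd5, another membrane subunit of complex I, was called lower at 5 of 6 reperfusion times with duplicates kept and at 2 with duplicates removed.

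mt-Co1 had 122774, 123732 and 64555 CPM in ischemic hearts, 87985, 76694 and 83829 at 0.5 h, 113067, 80452 and 96909 at 1 h, 120787, 118646 and 111664 at 1.5 h, 83340, 117990 and 81898 at 3 h, 75288, 79235 and 85020 at 6 h, 69928, 68003 and 91382 at 12 h, against 113737, 121378 and 133664 in sham hearts. The reperfused libraries at 0.5, 1, 6 and 12 h lay below sham, and those at 1.5 h and 3 h overlapped it. Its log2 fold change with duplicates kept was -0.57 ± 0.19, adjusted p = 0.0494 at 0.5 h, -0.62 ± 0.19, adjusted p = 0.00875 at 6 h and -0.69 ± 0.19, adjusted p = 0.00712 at 12 h. The call at 0.5 h was lost without any 1 of the 6 libraries. With duplicates removed no difference of mt-Co1 passed: at 0.5 h it had 19717, 17901 and 17284 CPM in reperfused hearts, against 16427, 18071 and 21028 CPM in sham hearts, and the groups overlapped. The log2 fold changes in that readout were -0.02 ± 0.13 at 0.5 h, -0.04 ± 0.13 at 6 h and -0.31 ± 0.13, adjusted p = 0.0614 at 12 h.

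mt-Cytb had 43382, 47900 and 26967 CPM in ischemic hearts, 32398, 28196 and 30007 at 0.5 h, 54004, 30681 and 36288 at 1 h, 41330, 41629 and 39101 at 1.5 h, 32570, 43308 and 31886 at 3 h, 29724, 29716 and 33294 at 6 h, 28428, 29095 and 36705 at 12 h, against 40318, 46248 and 48071 in sham hearts, with duplicates kept. At 0.5, 6 and 12 h all reperfused libraries lay below sham. The log2 fold change was -0.57 ± 0.19, adjusted p = 0.0484 at 0.5 h, -0.54 ± 0.19, adjusted p = 0.0211 at 6 h and -0.51 ± 0.19, adjusted p = 0.0381 at 12 h. The call at 0.5 h was lost without any 1 of the 6 libraries, and those at 6 h and 12 h were lost without sham replicate 2 or 3 or without reperfused replicate 1 or 2 of that time. With duplicates removed mt-Cytb was called at no time by edgeR, with values from -0.26 at 12 h to 0.10 at 1 h. Of the 13 protein genes, 8 were called lower at 0.5 h, 1 at 1 h, none at 1.5 h by edgeR, 4 at 3 h, 7 at 6 h and 7 at 12 h with duplicates kept, against 2, 1, 0, 0, 3 and 4 at the same times with duplicates removed. Of all genes 4.48%, 3.41%, 2.99%, 16.9%, 22.9% and 14.9% were called lower at these times with duplicates kept. With duplicates removed 5.38%, 4.15%, 3.56%, 18.3%, 24.6% and 16.5% were. The protein genes at 1.5, 3 and 6 h were not above that share with duplicates removed. At 1.5 h 5 protein genes had an unadjusted p under 0.05 with duplicates kept and 1 with duplicates removed, and at 3 h 1 had with duplicates removed. None was called higher than in sham hearts in either readout, nor passed an unadjusted p under 0.05 in that direction in any of the 7 comparisons.

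For genes in the copied stretch the unique reads and the counts with multiply mapped reads included gave different values. mt-Co2, a catalytic subunit of cytochrome c oxidase, had a log2 fold change at 0.5 h of 0.12 ± 0.34 from unique reads and -0.70 ± 0.20, adjusted p = 0.029 with multiply mapped reads included. mt-Nd4l, a complex I subunit, had 1.02 ± 0.75 at 12 h from unique reads, which did not pass the test (adjusted p = 0.318), and -0.60 ± 0.17, adjusted p = 0.00946 with multiply mapped reads included. Over the 6 reperfusion times mt-Atp6 ran from -1.18 to 0.46 from unique reads. With multiply mapped reads included it ran from -0.84 to -0.41. The same 2 ranges were -0.74 to 0.52 and -0.63 to -0.17 for mt-Co3, and -1.0 to -0.14 and -0.73 to -0.23 for mt-Nd3. From unique reads mt-Nd3 was called lower at 1 time and the others at none. With multiply mapped reads included mt-Atp6 and mt-Nd3 were called lower at 4 times and mt-Co3 at 2. With these reads included 10 of the 13 protein genes were called lower at 0.5 h, 2 at 1 h, none at 1.5 h by edgeR (4 at an unadjusted p under 0.05), 8 at 3 h, 12 at 6 h and 12 at 12 h. Over all 32 members tested in that readout, 19 were lower at 0.5 h (background 4.47%), 8 at 1 h (3.36%) and 6 at 1.5 h (2.92%) with 1 higher (4.61%), mt-Tk, of whose reads 4.14% mapped to 1 place. At 3 h 16 were lower and 2 higher (16.9% and 18.5%), at 6 h 17 and 5 (22.8% and 24.5%), and at 12 h 19 and 1 (14.9% and 17.0%). After ischemia none was called by edgeR with multiply mapped reads included, 10 having an unadjusted p under 0.05, where 0.0909% of all genes were. mt-Atp8 had 1.41, 1.201 and 7.899 CPM in ischemic hearts, 7.16, 3.59 and 6.92 at 0.5 h, 6.83, 1.67 and 5.34 at 1 h, 1.202, 2.29 and 1.46 at 1.5 h, 1.32, 2.37 and 6.18 at 3 h, 5.68, 9.02 and 3.55 at 6 h, 2.36, 1.31 and 1.25 at 12 h, against 2.697, 1.71 and 5.197 in sham hearts from unique reads, and every group overlapped sham. Its log2 fold change over the reperfusion times ran from -0.94 to 0.94 from unique reads, with 0 calls. With multiply mapped reads included it ran from 0.05 to 0.72, and mt-Atp8 was called higher at 1 time, unlike the other protein genes.

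Of the rRNA genes only mt-Rnr2 was called against sham, and at 12 h only. mt-Rnr1 had 1946, 1701 and 905 CPM in ischemic hearts, 1284, 1075 and 1028 at 0.5 h, 1995, 800.2 and 972 at 1 h, 962, 1104 and 1198 at 1.5 h, 1427, 1328 and 992 at 3 h, 923, 2202 and 2047 at 6 h, 1064, 1563 and 1225 at 12 h, against 1408, 1809 and 1846 in sham hearts, and was called at no time by edgeR with duplicates kept or removed. Its values ran from -0.63 ± 0.30 at 1.5 h, with an unadjusted p of 0.0463, to 0.03 ± 0.30 at 6 h. mt-Rnr2 had 6467, 5590 and 5478 CPM in ischemic hearts, 5420, 3882 and 4226 at 0.5 h, 6459, 4572 and 5975 at 1 h, 6032, 9503 and 7879 at 1.5 h, 5628, 11974 and 7043 at 3 h, 4314, 5824 and 4729 at 6 h, 2948, 3418 and 5782 at 12 h, against 6568, 6589 and 7465 in sham hearts. Its libraries lay below sham in ischemia and at 0.5, 1, 6 and 12 h. It was lower at 12 h, by -0.76 ± 0.24, adjusted p = 0.0171 with duplicates kept and -0.52 ± 0.18, adjusted p = 0.0259 with duplicates removed. The call with duplicates kept was lost without sham replicate 3, reperfused replicate 1 or reperfused replicate 2. That with duplicates removed was lost without sham replicate 2 or 3 or reperfused replicate 1 or 2.

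**Figure D5:**
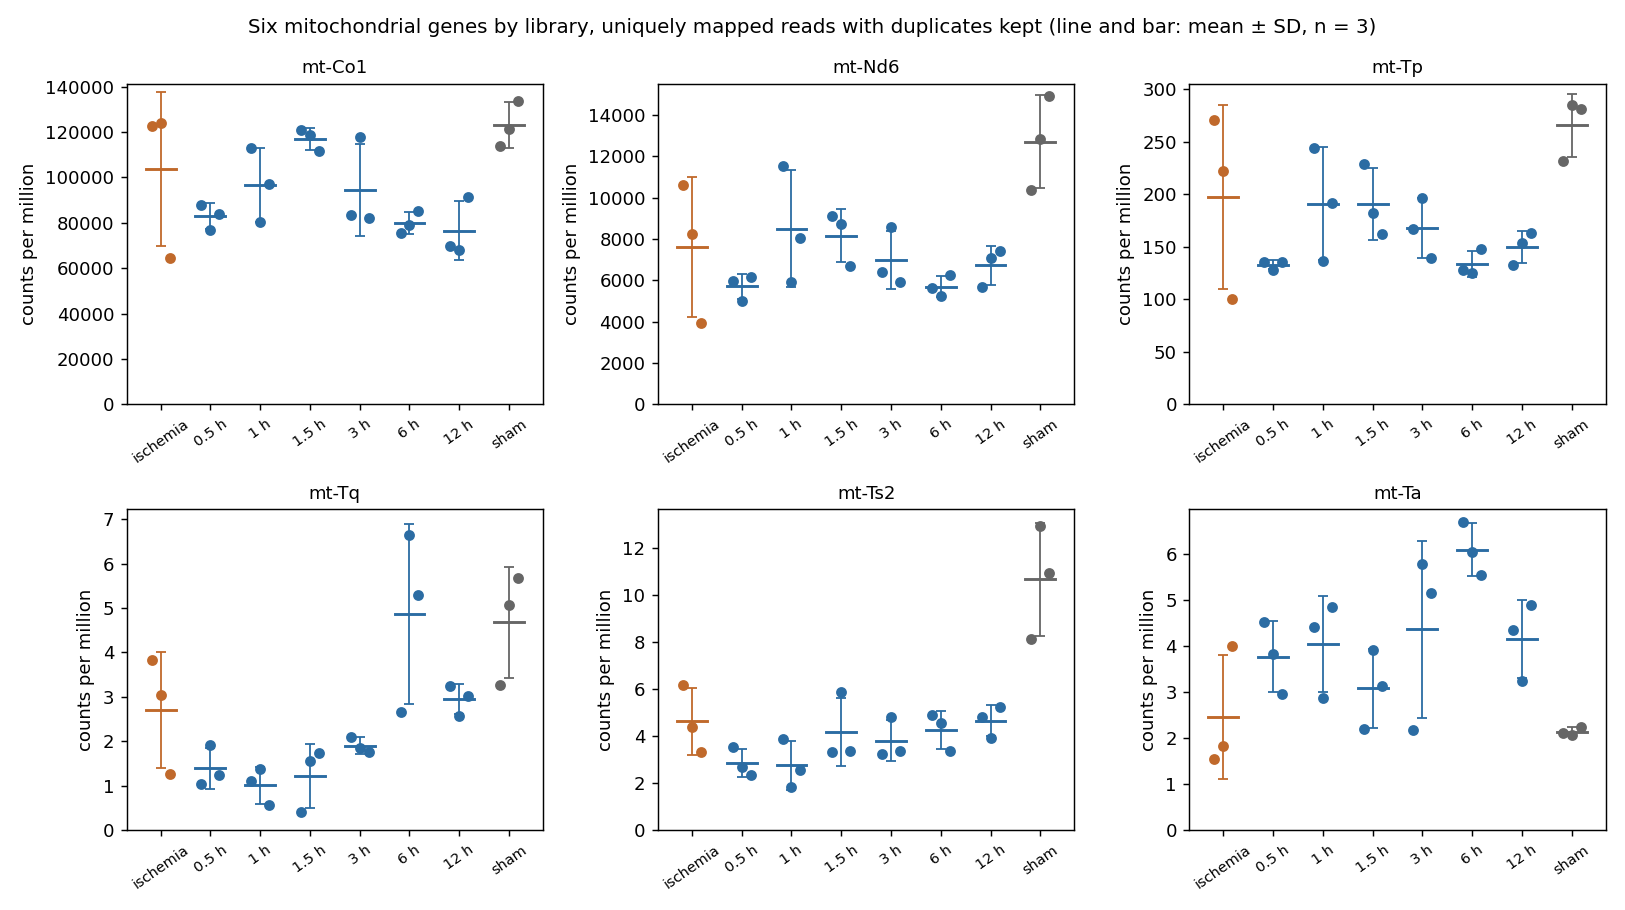
Normalized level (CPM, duplicates kept) of mt-Co1, mt-Nd6, mt-Tp, mt-Tq, mt-Ts2 and mt-Ta in each library, by group from ischemia through 6 reperfusion times to sham; points are libraries, and lines with bars are means ± SD (n = 3). mt-Ts2 lies below sham in every library with ischemia, mt-Tq lies below sham from 0.5 to 3 h and overlaps it at 6 h, and mt-Ta lies above sham at 6 h.

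Several tRNA genes showed the largest fold changes of all members, on few reads. The genes are printed 5′ to 3′ as transcribed, because the results turn on them, with the anticodon in capitals.
mt-Ti: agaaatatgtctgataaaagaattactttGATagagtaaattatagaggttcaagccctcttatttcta
mt-Tq: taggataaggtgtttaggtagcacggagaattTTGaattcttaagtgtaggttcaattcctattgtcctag
mt-Tm: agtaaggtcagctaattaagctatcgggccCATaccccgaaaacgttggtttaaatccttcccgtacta
mt-Th: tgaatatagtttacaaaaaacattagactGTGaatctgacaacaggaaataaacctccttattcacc
mt-Ts2: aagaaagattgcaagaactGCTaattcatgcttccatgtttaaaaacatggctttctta
mt-Ta: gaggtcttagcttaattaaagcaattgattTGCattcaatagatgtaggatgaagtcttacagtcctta
They carry isoleucine (mt-Ti, chrM:3706-3774), glutamine (mt-Tq, chrM:3772-3842), methionine (mt-Tm, chrM:3845-3913), histidine (mt-Th, chrM:11546-11612), serine (mt-Ts2, chrM:11613-11671) and alanine (mt-Ta, chrM:5018-5086), in GRCm38 coordinates from GENCODE vM21. mt-Tq and mt-Ta lie on the minus strand and the others on the plus strand. mt-Ti, mt-Tq and mt-Tm follow each other between mt-Nd1 and mt-Nd2, with the ends of mt-Ti and mt-Tq overlapping on opposite strands, and mt-Th and mt-Ts2 follow mt-Nd4. Whether a read came from a mature tRNA or from an uncut precursor was not recorded in the counts.

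mt-Ts2 was the only member called lower at all 6 reperfusion times, and it was so with duplicates kept and with duplicates removed. It had 6.17, 4.38 and 3.35 CPM in ischemic hearts, 3.54, 2.69 and 2.37 at 0.5 h, 3.89, 1.85 and 2.55 at 1 h, 3.34, 5.87 and 3.39 at 1.5 h, 3.25, 4.81 and 3.38 at 3 h, 4.91, 4.57 and 3.36 at 6 h, 4.83, 3.94 and 5.23 at 12 h, against 8.15, 12.9 and 10.9 in sham hearts. Every reperfused library lay below every sham library. The log2 fold change was -1.90 ± 0.29, adjusted p = 0.000301 at 0.5 h, -1.96 ± 0.29, adjusted p = 0.000124 at 1 h and -1.19 ± 0.27, adjusted p = 0.00162 at 12 h, and with duplicates kept none of the 6 calls was lost when any 1 library was left out. With duplicates removed the call at 1.5 h was lost without sham replicate 2 or 3 or reperfused replicate 1 or 3, and that at 12 h without reperfused replicate 2. These values rest on 31 to 92 reads per library with reperfusion and 127 to 189 in sham hearts.

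mt-Tq and mt-Ti were called lower from 0.5 to 3 h and were near sham at 6 h. mt-Tq, which had the largest called fall of the members, had 3.82, 3.04 and 1.26 CPM in ischemic hearts, 1.03, 1.92 and 1.24 at 0.5 h, 1.102, 1.37 and 0.559 at 1 h, 0.401, 1.55 and 1.73 at 1.5 h, 2.11, 1.85 and 1.76 at 3 h, 2.66, 6.65 and 5.29 at 6 h, 3.24, 2.58 and 3.01 at 12 h, against 3.27, 5.07 and 5.68 in sham hearts. All libraries from 0.5 to 3 h and at 12 h lay below sham, and those at 6 h overlapped it. Its reads numbered 6 to 35 per library from 0.5 to 3 h and 51 to 74 in sham hearts. The log2 fold change was -2.19 ± 0.44, adjusted p = 0.00272 at 1 h, -1.92 ± 0.43, adjusted p = 0.00662 at 1.5 h and 0.06 ± 0.38, adjusted p = 0.91 at 6 h. The calls at 0.5 h (-1.73 ± 0.42) and 3 h (-1.28 ± 0.41) were each lost without 1 of 3 libraries: sham replicate 3 or reperfused replicates 1 or 3 at 0.5 h, and sham replicates 2 or 3 or reperfused replicate 3 at 3 h. mt-Ti had -1.93 ± 0.34, adjusted p = 0.000932 at 1 h and 0.12 ± 0.31, adjusted p = 0.771 at 6 h. At 3 h mt-Ti overlapped sham, with 4.88, 2.66 and 1.89 CPM against 4.75, 5.0 and 8.075 in sham hearts. Its call at 3 h (-0.90) was lost without sham replicate 3 or reperfused replicates 2 or 3. With duplicates removed mt-Tq and mt-Ti were called at the same 4 times. In that readout the calls of mt-Tq at 0.5 h and of both genes at 3 h were lost without 3 to 5 of the 6 libraries, and the others were kept without each.

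mt-Ta ran the other way and was called higher at 3, 6 and 12 h. It had 1.54, 1.84 and 4.004 CPM in ischemic hearts, 4.51, 3.83 and 2.96 at 0.5 h, 4.41, 2.87 and 4.85 at 1 h, 2.204, 3.91 and 3.12 at 1.5 h, 2.17, 5.77 and 5.14 at 3 h, 6.68, 6.04 and 5.54 at 6 h, 4.34, 3.23 and 4.89 at 12 h, against 2.12, 2.06 and 2.24 in sham hearts, from 28 to 33 reads per library in sham hearts. All libraries at 0.5, 1, 6 and 12 h lay above the sham libraries, and those at 1.5 h and 3 h overlapped them in the normalized values. The log2 fold change was 1.51 ± 0.34, adjusted p = 0.000889 at 6 h, the largest called rise of the members. At 3 h it was 1.02 ± 0.35, and at 12 h 0.96 ± 0.35. The call at 3 h was lost without any 1 sham library or reperfused replicates 2 or 3, and that at 12 h without any 1 sham library or reperfused replicates 1 or 3. With duplicates removed mt-Ta was called at 6 h only.

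Of the tRNA genes with the most reads, mt-Tc and mt-Tp, which carry cysteine and proline, fell at 0.5, 6 and 12 h. mt-Tc had 221, 225 and 174 CPM in ischemic hearts, 201, 160.3 and 168 at 0.5 h, 265, 207 and 228 at 1 h, 249, 376 and 280.1 at 1.5 h, 225, 389.7 and 208 at 3 h, 197, 206 and 221 at 6 h, 165, 168 and 276 at 12 h, against 302, 368 and 383 in sham hearts. Its libraries lay below sham in ischemia and at all reperfusion times other than 1.5 h and 3 h. With duplicates kept it was called lower at 0.5 h (-0.99 ± 0.21), 6 h (-0.76 ± 0.21) and 12 h (-0.79 ± 0.21), and no call was lost when any 1 library was left out. With duplicates removed mt-Tc was called at the same times with smaller falls, -0.61, -0.40 and -0.50. Those calls were lost without 4, 5 and 4 of the 6 libraries. mt-Tp had 271, 222 and 100.5 CPM in ischemic hearts, 136, 128 and 136 at 0.5 h, 244, 137 and 192 at 1 h, 229, 182 and 162 at 1.5 h, 167, 197 and 139.5 at 3 h, 128, 125 and 148 at 6 h, 133, 154 and 163 at 12 h, against 231, 285 and 281 in sham hearts. Its libraries overlapped sham in ischemia and at 1 h only. With duplicates kept it was called lower at 0.5 h (-0.997 ± 0.24), 3 h (-0.66 ± 0.24), 6 h (-0.99 ± 0.24) and 12 h (-0.83 ± 0.24). Only the call at 3 h was lost when 1 library was left out, without sham replicates 2 or 3 or reperfused replicates 1 or 3. With duplicates removed mt-Tp was called lower at 0.5 h (-0.64), 6 h (-0.65) and 12 h (-0.63). The call at 0.5 h was then lost without 5 of the 6 libraries, that at 12 h without 1 and that at 6 h without none.

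mt-Te, which carries glutamic acid, had 63.02, 73.1 and 73.7 CPM in ischemic hearts, 83.2, 74.8 and 54.1 at 0.5 h, 100.3, 63.2 and 82.1 at 1 h, 43.2, 85.7 and 45.4 at 1.5 h, 63.7, 85.6 and 81.5 at 3 h, 91.01, 79.3 and 94.4 at 6 h, 88.6, 85.2 and 109.9 at 12 h, against 115, 130.1 and 113 in sham hearts. Every library with ischemia lay below every sham library. With duplicates kept it was called lower at 0.5 h (-0.76 ± 0.21), 1.5 h (-1.04 ± 0.21) and 3 h (-0.63 ± 0.21). The call at 0.5 h was lost without sham replicates 1 or 2 or reperfused replicate 3, and that at 3 h without sham replicate 2 or reperfused replicate 1. With duplicates removed mt-Te was called at the same times, with -0.51, -0.79 and -0.44. The call at 0.5 h was then lost without any 1 of the 6 libraries, and that at 3 h without 4 of them. With multiply mapped reads included mt-Te was called lower at 1 time. mt-Tn, which carries asparagine, had 104, 114 and 74.8 CPM in ischemic hearts, 76.4, 56.1 and 59.9 at 0.5 h, 127, 67.3 and 137 at 1 h, 143, 204 and 194 at 1.5 h, 165, 280.1 and 65.9 at 3 h, 63.4, 63.8 and 55.99 at 6 h, 50.3, 70.1 and 123 at 12 h, against 129.8, 165 and 173 in sham hearts. Its mean was lowest at 6 h, while the lowest single library was at 12 h, and at 6 h the log2 fold change was -1.35 ± 0.35, adjusted p = 0.00275, a call kept without each library in turn. With duplicates removed the same difference was -0.26 ± 0.20, adjusted p = 0.273, and mt-Tn was one of the members whose duplicates moved most, as described below. Of the 16 tested tRNA genes 10 were called lower at 0.5 h, 6 at 1 h, 6 at 1.5 h, 9 at 3 h, 5 at 6 h and 6 at 12 h with duplicates kept, with 2 higher at 3 h, 4 at 6 h and 1 at 12 h. Of all genes 4.48%, 3.41%, 2.99%, 16.9%, 22.9% and 14.9% were called lower at these 6 times. At 3, 6 and 12 h 18.4%, 24.6% and 16.9% of all genes were called higher, and the share of tRNA genes that rose was near or below these.

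Between consecutive times the share of members called was not above that of all genes at any step. None was called by edgeR between 0.5 h and ischemia (background 0.0331%), between 1 h and 0.5 h (0.0%), between 1.5 h and 1 h (0.0661%) or between 3 h and 1.5 h (8.53%), where 8, 5, 4 and 2 members had an unadjusted p under 0.05. DESeq2 called 1, 0, 0 and 1 in these steps. Without ischemia replicate 3, 9 members were called between 0.5 h and ischemia, 8 of them lower at 0.5 h, and without reperfused replicate 2 at 0.5 h 1 was. Without replicate 2 at 1.5 h, 1 was called between 3 h and 1.5 h. At 6 h against 3 h 8 of the 31 members were called, where 27.9% of all genes were. Of the 8, mt-Ti, mt-Tq, mt-Tm, mt-Tg and mt-Th were higher at 6 h, and mt-Rnr2, mt-Tl1 and mt-Tn were lower. The count was 3 without replicate 2 of 3 h, and 5 without replicate 1 or 2 of 6 h. With duplicates removed 5 of the 8 were called, while mt-Th, mt-Rnr2 and mt-Tn were not. At 12 h against 6 h 2 of the 31, mt-Ty and mt-Atp8, were called lower, where 13.2% of all genes were called. That count was 0 without replicate 1 or 2 of 6 h or replicate 2 of 12 h, and 1 without replicates 1 or 3 of 12 h. Over all 8 groups 24 members differed with duplicates kept, where 64.3% of all genes did, and 19 did with duplicates removed, where 69.9% did, 18 of them in both.

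The ratio of all reads to distinct reads was then tested for each gene with limma, on the log2 scale with a pseudocount of 0.5. The standard errors of this test came from a trend over genes of like level. They do not measure the spread of each gene between its own libraries, so a small p-value can go with libraries that differ widely. It fell in many members and in few other genes: 3 of 31 members were lower in ischemia (background 0.0397%), 17 at 0.5 h (0.278%), 16 at 1 h (0.178%), 5 at 1.5 h (0.0529%), 14 at 3 h (0.172%), 15 at 6 h (0.337%) and 16 at 12 h (0.284%). Against these, 2 members were higher at 1.5 h (background 0.0859%), mt-Co3 and mt-Nd4l, and 1 at 12 h (0.0595%), mt-Nd4l, all in the copied stretch. At 1.5 h both overlapped sham. The duplicates of mt-Co3 ran from 82.14% to 88.63%, against 75.92% to 89.66% in sham hearts. Those of mt-Nd4l ran from 67.84% to 92.98%, against 69.71% to 75.49%. Without reperfused replicate 1 no member was called higher at 1.5 h. For mt-Nd6 the change in the ratio was -0.67 ± 0.08, adjusted p = 4.68e-14 at 0.5 h and -0.66 ± 0.08, adjusted p = 5.3e-14 at 6 h. For mt-Co1 it was -0.58 ± 0.11, adjusted p = 0.000233 at 0.5 h and -0.63 ± 0.11, adjusted p = 1.56e-05 at 6 h. For mt-Tn it was -1.13 ± 0.06, adjusted p = 2.62e-80 at 6 h. Its duplicates ran from 57.65% to 59.18% at 6 h, against 79.32% to 82.12% in sham hearts. At 3 h they ran from 55.97% to 83.58%, a spread that this standard error leaves out. The ratio of the low tRNA genes mt-Tq, mt-Ta and mt-Ts2 did not pass in any of the 7 comparisons with sham. The count at 1 h was 9 without sham replicate 2 or reperfused replicate 3, 10 without sham replicate 3 and 4 without reperfused replicate 2. At 1.5 h it was 2 without sham replicate 2 or 3, 4 without reperfused replicate 1 or 2 and 1 without reperfused replicate 3, at 3 h 9 without sham replicate 2 and 8 without reperfused replicate 3, and at 12 h 11 without sham replicate 3 or reperfused replicate 2 and 7 without reperfused replicate 1. At all 6 reperfusion times members were called lower both in level and in this ratio, while in ischemia mt-Tn, mt-Tc and mt-Nd6 were lower in the ratio and no member was called in level by edgeR. Reads with duplicates kept are the distinct reads multiplied by this ratio, so apart from the scaling of libraries the falls in both are not separate results. For mt-Nd6 at 6 h the log2 fold change was -1.16 with duplicates kept and -0.54 with duplicates removed, and the ratio changed by -0.66. What changed the ratio was not tested.

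The nuclear genes that work with the mitochondrial genome were taken from lists of known members, and their values are from the same edgeR fit with duplicates kept. Of the 36 nuclear subunits of complex I 16 rose at 0.5 h, where 7.43% of all genes did, and none fell, with or without adjustment. Their median log2 fold change was 0.41, while that of the 7 mitochondrial subunits was -0.90 in the same libraries. With duplicates removed the medians were 0.41 for the nuclear and -0.32 for the mitochondrial subunits, of which 2 were then called lower, against 6 with duplicates kept. Without reperfused replicate 1 the number that rose was 6, and without sham replicate 1, 2 or 3 it was 9, 10 and 9. At 12 h the median of the nuclear subunits was -0.07 and that of the mitochondrial subunits -0.81, and with duplicates removed they were -0.05 and -0.39. Ndufb8, Ndufb6 and Ndufb3, accessory subunits of complex I, rose at 0.5 h on the log2 scale by 1.30 ± 0.22, 1.18 ± 0.24 and 0.76 ± 0.16.

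The other complexes with mitochondrial subunits gave the following values at 0.5 h, when 7.43% of all genes rose. Of 9 nuclear subunits of complex III 3 rose, among them Uqcr11 by 1.75 ± 0.31, Uqcrq by 0.95 ± 0.20 and Uqcrfs1, the iron-sulfur subunit, by 0.41 ± 0.12, while mt-Cytb was lower. Of 12 nuclear subunits of cytochrome c oxidase 4 rose, among them Cox5b by 0.92 ± 0.20, and Cox6a2 and Cox8b, muscle forms of their subunits, by 0.71 ± 0.18 and 0.74 ± 0.19. That count was 1 without reperfused replicate 1 or sham replicate 1, and 2 without sham replicate 3. Of 15 nuclear subunits of ATP synthase 5 rose, among them Atp5k by 1.79 ± 0.29, Atp5e by 1.20 ± 0.23 and Atp5d by 0.74 ± 0.15. None of the nuclear subunits of these 3 complexes was lower at an unadjusted p under 0.05 at that time.

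The genes that transcribe, cut and translate mitochondrial RNA are given at 6 h, when 47.4% of all genes were called, so that calls in about that share of a list are no result about the list. Of 21 genes for mitochondrial DNA transcription and replication 3 rose and 9 fell at 6 h, where 24.6% and 22.9% of all genes did. The log2 fold change of Ppargc1a, a coactivator of mitochondrial biogenesis, was -1.07 ± 0.25, that of Mterf2, which belongs to the family of mitochondrial termination factors, -1.65 ± 0.20, and that of Tfb1m, which methylates the mitochondrial small-subunit rRNA, -1.64 ± 0.23, all called lower. Of 37 genes for RNA processing and decay 7 rose and 13 fell at 6 h. Elac2, which cuts tRNAs at their 3′ ends, rose by 0.65 ± 0.11, and Pde12, which shortens poly-A tails in mitochondria, by 0.95 ± 0.17. Trmt5, a tRNA methyltransferase, fell, with -2.26 ± 0.19. The 7 that rose became 4 without reperfused replicate 2 or 3 or sham replicate 1 or 2.

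Of 23 mitochondrial aminoacyl-tRNA synthetases and partners, which load tRNAs with their amino acids, 2 rose and 10 fell at 6 h. Of all genes 24.6% rose and 22.9% fell at that time. Those that fell included Lars2, for leucine, with -0.84 ± 0.20 and Qrsl1, a subunit of the enzyme that completes the glutamine tRNA, with -0.71 ± 0.13. Of 14 translation factors 5 fell at 6 h, where 22.9% of all genes did. Among them were Mtif2, an initiation factor, with -0.99 ± 0.16, Mtrf1, a release factor, with -1.003 ± 0.20 and Oxa1l, which inserts the new proteins into the inner membrane, with -0.40 ± 0.10. At 0.5 h, when 11.9% of all genes were called, 1 of the 21 transcription and replication genes, 1 of the 37 processing genes and 3 of the 14 translation factors were called. None of the 23 synthetases was called then by edgeR, 2 being higher and 3 lower at an unadjusted p under 0.05. The processing gene lost its call without any 1 library, and at most 1 translation factor was called higher and none lower by edgeR when any 1 library was left out. Of 11 genes of the mitochondrial unfolded protein response and chaperones 5 rose at 0.5 h (7.43% of all genes) and 6 at 6 h (24.6%). Atf4, a transcription factor of that response, rose by 2.43 ± 0.20 and Ddit3, another, by 0.77 ± 0.27 at 6 h, and Chchd2 by 0.50 ± 0.14. The count of 5 at 0.5 h was 2 without reperfused replicate 1 or sham replicate 3, and 3 without reperfused replicate 3 or sham replicate 2.

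Markers of other cell types moved both early and late. The summed level of 6 neutrophil markers was 8.13 to 15.04 CPM in ischemic hearts, 8.55 to 12.4 at 0.5 h, 9.42 to 11.8 at 1 h, 7.63 to 19.6 at 1.5 h, 7.99 to 25.6 at 3 h, 54.4 to 126 at 6 h and 49.9 to 62.5 at 12 h, against 1.701 to 4.699 CPM in sham hearts, where 1 of the 6 was at 0 reads. Every group with ischemia lay above sham on this sum. The 6 erythroid markers summed to 239 to 294 CPM in ischemic hearts, 222 to 382 at 0.5 h, 216 to 302 at 1 h, 87.6 to 338 at 1.5 h, 144 to 276 at 3 h, 124 to 216 at 6 h and 108 to 239.6 at 12 h, against 77.8 to 174 CPM in sham hearts, and lay above sham without overlap in ischemia and at 0.5 h and 1 h. The 6 endothelial markers summed to 985 to 1121 CPM at 0.5 h and 1131 to 1171 CPM at 6 h, both above the 861 to 928 CPM in sham hearts, and overlapped sham in the other 5 groups. The 10 cardiomyocyte markers summed to 78977 to 82116 CPM at 0.5 h and 58579 to 62178 CPM at 12 h, against 65430 to 71803 CPM in sham hearts. The 6 fibroblast markers summed to 949 to 1198 CPM at 1.5 h and 465 to 782 CPM at 6 h, both below the 1233 to 1321 CPM in sham hearts. The 6 macrophage markers summed to 293 to 307 CPM in ischemic hearts and 180.4 to 232 CPM at 3 h, against 239 to 269 CPM in sham hearts, and overlapped sham at the other 5 times. The part of these cells in the mitochondrial values was not tested.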

How the data were processed

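RNA sequencing of mouse hearts gave 24 libraries, 3 in each of 8 groups assigned from the labels. The deposited tables hold, for each gene and library, counts of reads with all reads and after the authors removed duplicates, each with unique reads and with multiply mapped reads included, and the deposited columns also hold the fraction of duplicate reads, RPKM values and a signal of reads per base pair of gene. The genome build is mm10 per the submitters' processing notes, and the libraries were made with the Illumina TruSeq RNA kit per the labels' protocols. The aligner, the counter, its strand setting, its annotation and the tool that marked duplicates are not given in any source used here.

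The main readout was unique reads with duplicates kept. Gene names and positions came from GENCODE vM21, which named 45143 of the 46078 gene IDs, and copies in the nucleus were found by aligning the transcripts with Biopython 1.88. Genes passed edgeR's filterByExpr (minimum count 10, minimum total 15), library sizes were scaled by TMM, and differences were tested with edgeR 4.0.16's quasi-likelihood test over all 8 groups in R 4.3.3, with Benjamini-Hochberg adjustment over the 15128, 14418 or 15397 genes tested with duplicates kept, removed or multiply mapped reads included. All groups share 1 estimate of spread (16 residual degrees of freedom). The log2 ratio of all to distinct reads was tested with limma 3.58.1 (limma-trend, pseudocount 0.5), where the variance came from a trend over genes of like level. Alternatives were DESeq2 1.42.0, limma-voom, no filter, other scaling, fits of only 2 groups, a replicate block and leaving out each library, and the closing part gives their effect. The fits were checked on simulated counts. Single genes were named by a rule: both rRNAs, mt-Nd6, mt-Nd1, mt-Cytb, mt-Co1, mt-Atp8, the members with the largest called rise and fall, the tRNA genes with the most reads, and the called members of each partner list with the smallest p over the 8 groups. mt-Ts2, mt-Ti and the genes whose copies or anticodons are printed were added after their values were seen, as were mt-Nd5, mt-Co2 and mt-Nd4l. The members and the lists were chosen with earlier results of these data known.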

Additional observations from a re-analysis of the deposited data

Results flagged for a closer look

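A difference between consecutive reperfusion times, tested by edgeR with duplicates kept, was called for 10 members. The share of members called was not above that of all genes, which was 27.9% at 6 h against 3 h and 13.2% at 12 h against 6 h. At 6 h against 3 h the log2 fold change was 1.55 for mt-Tm, 1.35 for mt-Tq, 1.18 for mt-Tg, 1.02 for mt-Ti and 0.85 for mt-Th, which were higher at 6 h. It was -1.48 for mt-Tn, -1.05 for mt-Tl1 and -0.73 for mt-Rnr2, which were lower at 6 h. Of these 8, mt-Tm stayed called without each of the 6 libraries in turn, with adjusted p-values up to 0.0163, and the calls of mt-Tn and mt-Tl1 were lost without replicate 2 of 3 h only. The calls of mt-Tq were lost without 2 of the 6 libraries, those of mt-Ti, mt-Th and mt-Rnr2 without 3 and that of mt-Tg without 4. With duplicates removed 5 of the 8, mt-Tm, mt-Tq, mt-Tg, mt-Ti and mt-Tl1, were called, while mt-Tn, mt-Th and mt-Rnr2 were not. mt-Tm had 5.26, 9.21 and 7.54 CPM at 6 h, against 3.31, 1.997 and 2.15 CPM at 3 h. mt-Tn had 63.4, 63.8 and 55.99 CPM at 6 h, against 165, 280.1 and 65.9 CPM at 3 h. With duplicates removed mt-Tn had 48.98, 48.34 and 45.5 CPM at 6 h, against 57.16, 90.24 and 52.59 CPM at 3 h.

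At 12 h against 6 h the log2 fold change was -0.66 for mt-Ty, a tRNA gene for tyrosine, and -1.89 for mt-Atp8. The first call was lost without 4 and the second without 5 of the 6 libraries. mt-Ty had 35.7, 31.8 and 46.0 CPM at 12 h, against 54.8, 72.2 and 52.6 CPM at 6 h, and mt-Atp8 had 2.36, 1.31 and 1.25 CPM at 12 h, against 5.68, 9.02 and 3.55 CPM at 6 h. mt-Atp8 is counted from the small part of its reads that map to 1 place.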

How the results depend on the processing

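Of 87 calls of single members across all comparisons, none changed direction under any alternative run. With duplicates removed 57 were called, with DESeq2 86, with multiply mapped reads included 83, without the filter 85, with limma-voom 82, with library totals 82, with 2 groups only 80 and with scaling on nuclear genes 87. Numbers of called members that moved by over 1.5 times were, for ischemia, 3 with DESeq2, 10 without the filter and 2 with 2 groups only, against 0. At 0.5 h they were 11 with duplicates removed, against 18. At 1 h they were 11 with DESeq2 and 19 without the filter, against 7. At 1.5 h they were 20 without the filter and 16 with 2 groups only, against 6. At 3 h they were 7 with duplicates removed, against 15, and at 12 h 23 without the filter, against 15. Between 0.5 h and ischemia they were 1 with DESeq2 and 7 without the filter, against 0, and without the filter 3 between 1 h and 0.5 h and 6 between 1.5 h and 1 h, against 0. Between 3 h and 1.5 h they were 1 with duplicates removed, 1 with DESeq2 and 4 without the filter, against 0. Between 6 h and 3 h they were 5 with duplicates removed and 16 without the filter, against 8. Between 12 h and 6 h they were 1 with multiply mapped reads included, 0 with library totals in edgeR and 6 without the filter, against 2. The cause was not tested.

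After centring, the ratio of all to distinct reads differed in 1 member in ischemia, 2 at 1.5 h and 10 at 12 h, against 3, 7 and 17. The difference in mitochondrial share from sham, in percentage points, was with duplicates removed -1.32 at 0.5 h, -0.501 at 1 h, -0.917 at 1.5 h, -1.29 at 3 h, -1.76 at 6 h and -1.84 at 12 h. The difference in duplicate share at 0.5 h was -6.42 with multiply mapped reads included.

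When each library was left out in turn, called members ranged from 0 to 1 in ischemia, 9 to 14 at 0.5 h, 3 to 7 at 1 h, 6 to 14 at 3 h, 9 to 15 at 12 h, 0 to 9 at 0.5 h against ischemia, 0 to 1 at 3 h against 1.5 h, 3 to 7 at 6 h against 3 h and 0 to 2 at 12 h against 6 h. With duplicates removed they ranged from 4 to 9 at 0.5 h, 3 to 5 at 1 h, 3 to 6 at 1.5 h, 1 to 8 at 3 h, 6 to 10 at 6 h, 0 to 13 at 12 h, 0 to 7 at 0.5 h against ischemia, 0 to 2 at 3 h against 1.5 h, 2 to 7 at 6 h against 3 h and 0 to 2 at 12 h against 6 h. Members with a changed ratio ranged from 4 to 16 at 1 h, 1 to 8 at 1.5 h, 8 to 18 at 3 h and 7 to 18 at 12 h. The difference in duplicate share between ischemia and sham ranged from -3.31 to 0.559 percentage points, the positive value being without ischemia replicate 3.

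The replicate numbers did not pair the libraries: deviations of same-numbered libraries from the group means correlated between -0.124 and 0.145. With a replicate block 84 of the 87 calls were made, 16 at 0.5 h, 8 at 1 h, 6 at 1.5 h, 15 at 3 h, 16 at 6 h and 15 at 12 h against sham being called in all, and no count moved by over 1.5 times. Depth limits the tRNA genes most, since several have under 100 reads per library.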
